A study of Drosophila melanogaster with 2 samples.

Results

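Fatty acid oxidation was followed through 10 genes of Drosophila melanogaster: whd, CPT2, Mcad, Arc42, Mtpalpha, Mtpbeta, yip2, Etf-QO, wal and Etfb. They were listed by name as genes of the pathway, with earlier results of these data known, from 13945 protein-coding gene models (Ensembl BDGP6). A binding region was counted for a gene when its summit, the position of highest signal, lay inside the gene or within 2 kb of any of its transcript starts. The measurements come from chromatin immunoprecipitation with sequencing (ChIP-seq) of the oestrogen-related receptor ERR. They were made on 2 biological replicates of whole embryos, numbered 2 and 3, from pooled sexes collected between 0 and 24 h of development. All embryos came from the transgenic line ERR-GFP, which stably expresses ERR with green fluorescent protein at its C-terminus, and chromatin was precipitated through an antibody against that tag. The regulatory sequence that drives the fusion is not given in the sources used here, and no control chromatin was analysed here. There was 1 group, so nothing was compared between conditions, and signals are averages over every cell type of the embryo.

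Fatty acids are activated to acyl-CoA in the cytosol, carried into mitochondria as carnitine esters and shortened by repeated cycles of dehydrogenation, hydration, a second dehydrogenation and thiolytic cleavage. Electrons from the acyl-CoA dehydrogenases pass to the electron transfer flavoprotein and from there to ubiquinone. In the mouse, ERR-alpha, a relative of fly ERR, is known to activate genes of this pathway, the medium-chain acyl-CoA dehydrogenase gene among them. In the fly embryo ERR is best known for switching on glycolytic genes.

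Of the 10 genes, 5 had a region in the authors' optimal set of 2892, made by comparing the replicates by irreproducible discovery rate. The set was identical to the 2892 highest pooled regions, so membership followed pooled signal and does not show agreement between replicates region by region. The 5 genes were whd, Mcad, Mtpbeta, Etf-QO and Etfb. Over all protein-coding genes the share was 22.5%. The lowest signal in that set was 69.2 in the peak caller's units and the 8 optimal regions of these genes ran from 75.6 to 128. Whether these signals are relative to a control is not stated in the sources used here. The nearest region of these genes outside it, a second one at Etfb, had 68.3 and ranked 2965. Over the whole optimal set the median was 97.8, and 2 of the 8 regions were above it. Their summits were nearest the starts of the neighbouring genes Pef (128) and ken (101), not those of whd and Mtpbeta. Taking the 2892 highest regions of 1 replicate at a time, 3 of the 10 genes had one in replicate 2 (background 22.9%) and 5 in replicate 3 (background 21.8%). The genes whd, Mcad and Mtpbeta had one in both (3 of 10, background 17.5%), while Etf-QO and Etfb had one in replicate 3 alone. At Mcad these were different regions, 716 bp upstream in replicate 2 and 237 bp upstream in replicate 3. Within 500 bp of a start, 4 genes had an optimal region (background 15.1%), Mcad being the one lost. The same 4 genes had an optimal region whose nearest protein-coding start was their own (background 14.1%). At Etfb this holds for the pooled summit, whereas the matching summits of both replicates lay nearer the start of CG7789. With 2 replicates no exact permutation test over samples could pass a threshold of 0.05, so all differences are given as values with no test. Depth is unknown, since the lists hold no read counts.

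**Figure D1:**
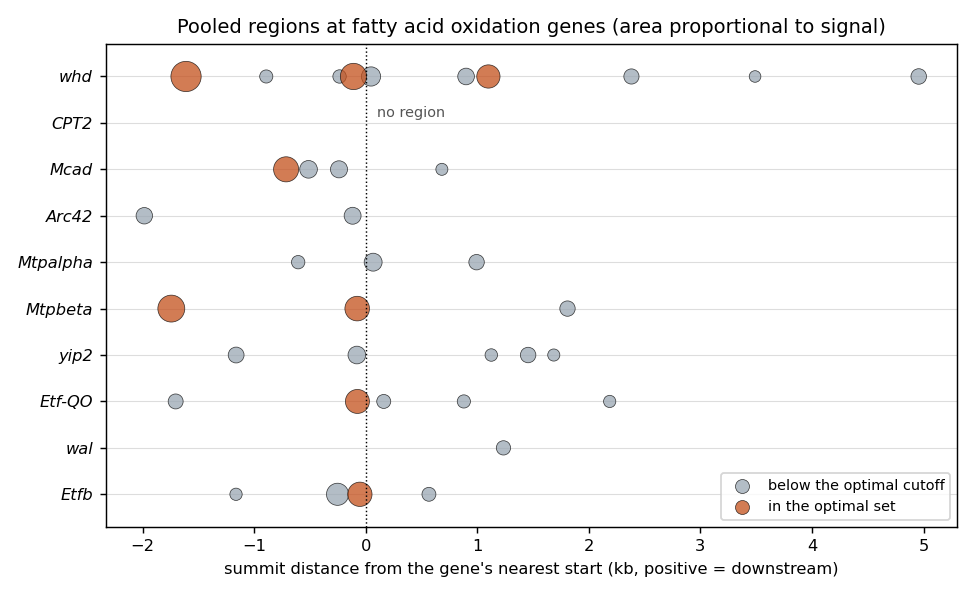
Summit distance from the gene's nearest start in kb (x axis, positive values downstream) for every pooled region of the 10 genes (y axis), with circle area proportional to signal. The 8 regions of the optimal set, in orange, lie at whd, Mcad, Mtpbeta, Etf-QO and Etfb, and CPT2 has no region.

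The carnitine shuttle gene whd carried the most regions. It encodes carnitine palmitoyltransferase 1, which makes acylcarnitine at the outer mitochondrial membrane (FBgn0261862; 2R, 10469473 to 10478567, minus strand). Having 3 optimal regions set it with 1.61% of all genes, and having 2 or more set whd and Mtpbeta with 5.36%. At 9095 bp whd was also the longest of the 10 genes, and 11.1 kb was searched for it against a median of 4.28 kb over all genes.

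Its promoter region (2R, 10478475 to 10478878) had its summit 110 bp upstream of the distal start. The signal there was 45.4 in replicate 2 (rank 2388), 50.8 in replicate 3 (rank 1085) and 96.6 in the pooled list (rank 1492). Both replicates thus placed it among their 2892 highest regions, lower in replicate 2. An intronic region 1099 bp downstream of that start had 33.8 in replicate 2 (rank 4138), 41.1 in replicate 3 (rank 1711) and 75.6 pooled (rank 2411). That is the lowest optimal region of the 10 genes, and replicate 2 alone did not place it in its top set. The highest signal reached by the rule at whd lay 1611 bp upstream, with 84.6 in replicate 2 (rank 643), 50.2 in replicate 3 (rank 1127) and 128 pooled (rank 843). The pooled summit was 15 bp from the start of Pef and 67 bp from the start of trsn, the translin gene, so by distance it is not assigned to whd. In replicate 3 the summit was nearer trsn, 23 bp from its start and 29 bp from that of Pef. At the internal start of whd, 47 bp downstream in the 5' UTR, the pooled signal was 51.6 (rank 4938), with 29.0 in replicate 2 and 22.9 in replicate 3. The other 6 pooled regions of whd, inside the gene or upstream of it, had signals from 18.9 to 38.6.

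**Figure D2:**
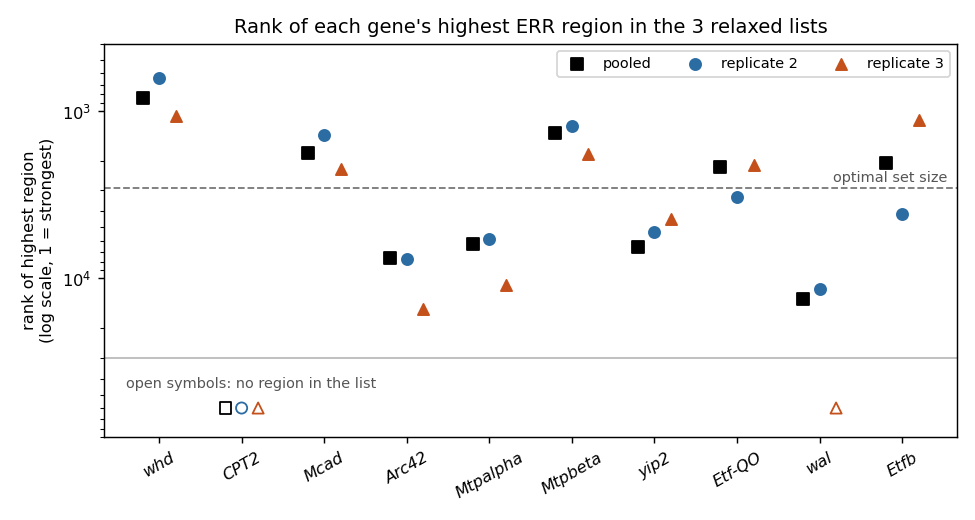
Rank of each gene's highest region (y axis, log scale, 1 strongest) in the pooled list, replicate 2 and replicate 3 for the 10 genes (x axis). The highest region can be a different one in each list, as at whd and Mcad, and at Mtpbeta it is the region nearest ken. The dashed line marks the optimal set size of 2892, and open symbols mark a list without a region, which holds for CPT2 in all 3 and for wal in replicate 3.

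CPT2 stood at the other end. It encodes carnitine palmitoyltransferase 2, which returns the acyl group to CoA inside the mitochondrion (FBgn0035383; 3L, 2981022 to 2983551, plus strand). No region under the rule was found in the pooled list or in either replicate list, each of 30000 regions that include background. Among all genes 19.7% had none in these lists. The nearest summit lay 54.3 kb from its start in the pooled list, 23.0 kb in replicate 2 and 54.1 kb in replicate 3. CPT2 lay in a stretch of 122 kb without a pooled summit, the 69th widest of 29994 intervals between neighbouring summits, whose median was 1.31 kb. That stretch held 10 protein-coding genes in full, among them the odorant receptor gene Or63a, the neuropeptide receptor gene FMRFaR and aly, a gene of the testis programme. In replicate 2 the stretch was shorter, 88.6 kb with 5 genes in full, Or63a and CPT2 among them but not FMRFaR or aly, and in replicate 3 it was 114 kb with 9 genes. What sets the absence at CPT2 was not tested. The 250 bases before the CPT2 start (dm6, plus strand, chr3L:2980772-2981021) are shown because they lie at a promoter without a region. They hold none of the 7 motifs searched, which are spelled out with their counts further on. One of these motifs, AAGGTCA, lay just outside these bases, 436 bp upstream of the start.
CPT2: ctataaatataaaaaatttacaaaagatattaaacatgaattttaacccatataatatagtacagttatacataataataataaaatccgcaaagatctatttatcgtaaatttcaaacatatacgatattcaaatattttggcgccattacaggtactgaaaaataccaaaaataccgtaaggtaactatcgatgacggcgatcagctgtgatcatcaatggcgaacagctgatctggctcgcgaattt

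Among the acyl-CoA dehydrogenase genes, the highest region under the rule ranked higher at Mcad than at Arc42 in both replicates. Within 500 bp of the start, however, replicate 2 had a region at Arc42 and none at Mcad. The replicate 2 summit nearest the Mcad start lay just past that limit, 509 bp upstream, with 21.2 (rank 9454). Mcad, whose product is the medium-chain enzyme, lies inside a long intron of CG32373 (FBgn0035811; 3L, 7719350 to 7721472, plus strand). Its optimal region (3L, 7718434 to 7718837) had a summit 714 bp upstream of the Mcad start and 241 bp from that of Ank2, an ankyrin gene on the other side. The signal was 59.3 in replicate 2 (rank 1393), 29.5 in replicate 3 (rank 3524) and 87.9 pooled (rank 1801). The matched summit of replicate 3 lay 827 bp upstream of Mcad, 113 bp from the pooled summit. In replicate 3 the highest region was another one, 237 bp upstream of Mcad, with 36.6 (rank 2227). Its pooled counterpart, 240 bp upstream, had 40.7 (rank 7379), and replicate 2 had no summit within 150 bp of it. The position of the strongest signal at Mcad thus differed between the replicates, nearer Ank2 in replicate 2 and nearer Mcad in replicate 3. Both windows, 100 bases on either side of the summit, are printed to show these 2 places (dm6, plus strand). The distal one is chr3L:7718536-7718736 with 11 bases at the pooled summit in capitals, and the proximal one is chr3L:7719013-7719213 with 11 bases at the replicate 3 summit in capitals. Their GC contents of 27.4% and 31.8% are below the lower quartile of 35.3% over all optimal windows (median 40.3%), and neither holds a searched motif.
Mcad distal: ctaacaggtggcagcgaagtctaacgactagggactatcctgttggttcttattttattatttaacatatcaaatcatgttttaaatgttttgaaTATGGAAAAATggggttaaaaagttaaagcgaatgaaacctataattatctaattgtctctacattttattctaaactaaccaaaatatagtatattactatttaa
Mcad proximal: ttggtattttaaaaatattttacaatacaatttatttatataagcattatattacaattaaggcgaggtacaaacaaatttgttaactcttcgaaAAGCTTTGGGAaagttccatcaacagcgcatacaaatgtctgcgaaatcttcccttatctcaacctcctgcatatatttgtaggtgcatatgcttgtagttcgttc

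Arc42 encodes a short-chain acyl-CoA dehydrogenase (FBgn0038742; 3R, 19877737 to 19879309, plus strand) and had no optimal region. Its promoter summit lay 118 bp upstream, 105 bp from the divergent start of CG17186. The signal was 23.8 in replicate 2 (rank 7679), 14.1 in replicate 3 (rank 15255) and 40.1 pooled (rank 7568, −log10 q of 2.21). All 3 ranks are below those of the highest Mcad region in every list, whereas the pooled signals within 500 bp of the start were close, 40.7 at Mcad and 40.1 at Arc42. The whole sequence between the divergent starts is printed because this summit falls inside it (dm6, plus strand, chr3R:19877515-19877736), with 11 bases at the pooled summit in capitals. It holds no searched motif, and the ERR sequence TNAAGGTCA lay further off, 1177 bp upstream of Arc42. That site, with 10 bases on either side and the motif in capitals, is chr3R:19876546-19876574. The nearest summit was 808 bp away in the pooled list, 807 bp in replicate 2 and 179 bp in replicate 3.
Arc42 to CG17186: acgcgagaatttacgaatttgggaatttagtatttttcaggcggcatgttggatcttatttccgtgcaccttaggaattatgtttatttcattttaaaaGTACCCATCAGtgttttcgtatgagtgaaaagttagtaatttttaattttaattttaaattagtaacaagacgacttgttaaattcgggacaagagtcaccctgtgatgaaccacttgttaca
Arc42 ERR sequence: ctccagaccaTCAAGGTCAgcttgaatct

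The later steps of the cycle are served by the trifunctional protein, with subunits encoded by Mtpalpha and Mtpbeta, and by the thiolase encoded by yip2. Mtpalpha (FBgn0028479; 2L, 9573563 to 9576769, minus strand) encodes the subunit with hydratase and hydroxyacyl dehydrogenase activity and had no optimal region. Its promoter summit lay in the 5' UTR, 66 bp downstream of the start, with 27.8 in replicate 2 (rank 5916), 16.7 in replicate 3 (rank 11043) and 44.9 pooled (rank 6276, −log10 q of 2.64). It was the single Mtpalpha region of replicate 3, whereas replicate 2 had 4, the highest of them 988 bp inside the gene with 27.9 (rank 5853). Around the promoter summit the M1BP motif GGTCACACT was found 19 bp downstream of the start, in the direction of transcription. M1BP is a zinc-finger protein of fly core promoters. The motif, in capitals as it reads on the plus strand with 10 bases on either side, is chr2L:9576736-9576764 (dm6).
Mtpalpha M1BP motif: gcacatccccAGTGTGACCgcgttcgtac

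The thiolase gene yip2 (FBgn0040064; 2L, 9915253 to 9917220, plus strand) had no optimal region and was the one gene of the 10 to enter the 5000 highest regions in replicate 3 alone. Its highest signal was 29.5 in replicate 2 (rank 5306), 26.4 in replicate 3 (rank 4425) and 43.6 pooled (rank 6571, −log10 q of 2.51). The pooled summit lay 80 bp upstream of the start, that of replicate 2 lay 132 bp upstream and that of replicate 3 lay 58 bp downstream, so the replicates straddled the start. A second replicate 3 region, 1453 bp downstream in coding sequence, had nearly the same signal, 25.6 (rank 4699), with no counterpart within 150 bp in replicate 2. TNAAGGTCA occurred 1245 bp downstream of the start in coding sequence, 120 bp from a weak pooled summit with 21.8 (rank 20727). Neither replicate had a summit within 150 bp of that pooled one. From the sequence, the nearest summit was 476 bp away in replicate 2 and 208 bp in replicate 3. The sequence before the start, up to the end of the neighbouring gene Srp54 (dm6, plus strand, chr2L:9915045-9915252), is printed with 11 bases at the pooled summit in capitals, followed by the coding site (chr2L:9916484-9916512) with the motif in capitals.
yip2 upstream: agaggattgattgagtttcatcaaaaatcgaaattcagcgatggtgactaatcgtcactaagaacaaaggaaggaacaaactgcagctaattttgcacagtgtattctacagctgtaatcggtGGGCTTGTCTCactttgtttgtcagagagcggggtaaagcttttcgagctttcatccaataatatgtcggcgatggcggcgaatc
yip2 ERR sequence: cccatcaaacTTAAGGTCAagggaaagga

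Mtpbeta, by contrast, had 2 optimal regions. It encodes the thiolase subunit of the trifunctional protein (FBgn0025352; 2R, 23866648 to 23868603, minus strand). At its promoter (2R, 23868478 to 23868881) the summit lay 77 bp upstream, with 54.9 in replicate 2 (rank 1624), 32.6 in replicate 3 (rank 2846) and 84.3 pooled (rank 1957). Both replicates ranked it above the promoter region of Mtpalpha, so the order of the subunit genes was the same in each. A higher region 1743 bp upstream had 62.2 in replicate 2 (rank 1243), 40.2 in replicate 3 (rank 1816) and 101 pooled (rank 1356). Its summit was 73 bp from the start of ken, a transcriptional repressor gene, and its window held the GAF motif GAGAGAG. TNAAGGTCA occurred 292 bp upstream of Mtpbeta, on the minus strand. A weak replicate 2 region had its summit 4 bp from it, with a signal of 12.2 (rank 23362), and one of replicate 3 lay 71 bp away with 9.64 (rank 28346), while the nearest pooled summit was 215 bp away. The windows of both weak replicate regions held that sequence. The sequence thus lay beside the strong promoter region and not at its summit. Another pooled region, 1808 bp downstream in coding sequence, had 33.0 (rank 10495), with 10.5 in replicate 2 (rank 28977) and 24.7 in replicate 3 (rank 5084), and was thus higher in replicate 3.

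**Figure D3:**
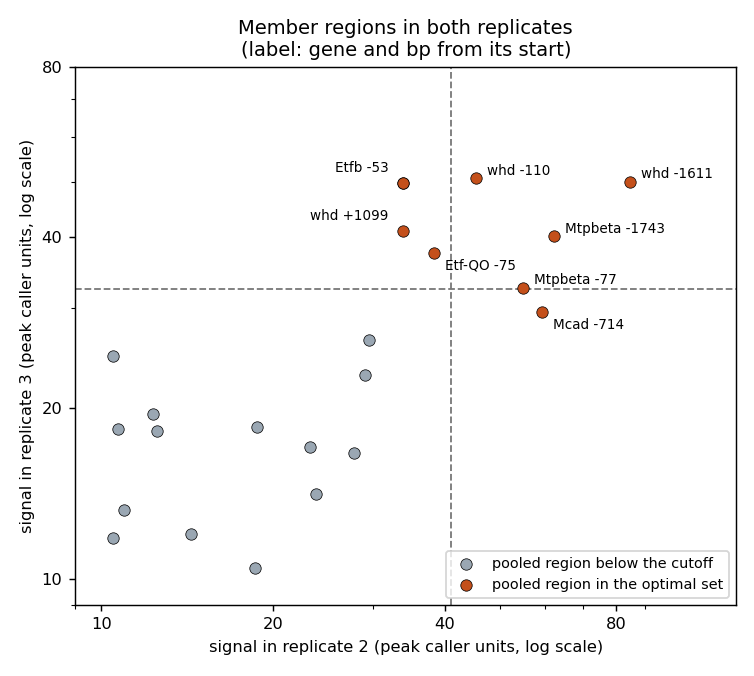
Signal in replicate 2 (x axis) and replicate 3 (y axis), both in peak caller units on log scales, for the pooled regions of the 10 genes with a summit in both replicates. Dashed lines mark the lowest signal among the 2892 highest regions of each replicate, 41.1 and 32.4, and the 8 optimal regions are labelled by gene and distance from its start, 4 of them past both lines.

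The electron transfer flavoprotein genes, Etfb for the beta subunit and wal for the alpha subunit, also stood at different levels. Etfb (FBgn0039697; 3R, 29801599 to 29802945, minus strand) shares a divergent promoter with CG7789. Its optimal region (3R, 29802796 to 29803199) had its summit 53 bp upstream and a pooled signal of 82.6 (rank 2050), and a second pooled region, 253 bp upstream and 2 bp from the CG7789 start, had 68.3. Each replicate instead gave 1 region between these summits, 135 bp upstream in replicate 2 with 33.9 (rank 4132) and 150 bp upstream in replicate 3 with 49.9 (rank 1137). A further weak region of replicate 3, 370 bp upstream with 10.6 (rank 24775), also lay within 150 bp of the second pooled summit. By nearest summit, both pooled regions were matched to the same replicate regions, those 135 and 150 bp upstream. Those replicate summits lay nearer the CG7789 start than that of Etfb, 116 bp from it in replicate 2 and 101 bp in replicate 3. The replicates differed more in rank here than at any other of the 8 optimal regions, and which of the genes the signal belongs to cannot be told by distance. The full 250 bases between the starts of Etfb and CG7789 (dm6, plus strand, chr3R:29802946-29803195) are printed because they hold the first pooled and both matched replicate summits. The second pooled summit and the weak replicate 3 summit fall outside. Within these bases capitals mark 11 at the first pooled, the matched replicate 2 and the matched replicate 3 summit, in that order. They hold none of the searched motifs, with a GC content of 41.2%.
Etfb to CG7789: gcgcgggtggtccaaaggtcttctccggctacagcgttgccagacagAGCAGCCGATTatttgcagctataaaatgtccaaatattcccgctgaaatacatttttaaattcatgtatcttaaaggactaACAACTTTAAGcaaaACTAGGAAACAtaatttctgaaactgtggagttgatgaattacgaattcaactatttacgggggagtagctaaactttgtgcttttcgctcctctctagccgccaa

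At wal (FBgn0010516; 2R, 11688569 to 11690863, minus strand) no list had a summit within 500 bp of the start. The highest region was 1234 bp downstream in coding sequence in the pooled list, with 28.6 (rank 13425, −log10 q of 1.03), and 1213 bp downstream in replicate 2 with 18.8 (rank 11633). Replicate 3 had no region at wal, and its nearest summit was 6.00 kb from the start. With CPT2, wal made 2 of 10 genes without a region in the replicate 3 list, against 25.6% of all genes. Both replicates ranked the Etfb promoter region above anything at wal.

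Etf-QO encodes the oxidoreductase that passes electrons from the flavoprotein to ubiquinone (FBgn0286783; 2R, 9910893 to 9913488, plus strand). Its optimal region (2R, 9910616 to 9911019) was the one closest in position between lists, with summits 74 bp upstream in replicate 2, 76 bp in replicate 3 and 75 bp in the pooled list. The signal was 38.4 in replicate 2 (rank 3304), 37.5 in replicate 3 (rank 2106) and 80.4 pooled (rank 2165). Its other 4 pooled regions were weaker, from 21.0 to 31.3. No other protein-coding start lay within 2 kb of the promoter summit. Of the 8 optimal regions this one and the whd intronic region were the only ones with no other protein-coding start that near.

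Across the 10 genes the pooled list held 37 regions, replicate 2 held 41 and replicate 3 held 34, and 9 genes had at least 1 pooled region (background 72.5%). A replicate 2 and a replicate 3 summit lay within 150 bp of 23 of them, a replicate 2 summit alone near 8, a replicate 3 summit alone near 5 and none near 1. By place, 18 summits lay outside the gene, 11 in coding sequence, 5 in introns and 3 in 5' UTRs. The 8 optimal ones were 7 outside the gene and 1 in an intron. All 8 had a summit in both replicates, as did 98.0% of the whole optimal set, and 4 of them were among the 2892 highest of each, against 65.4% of the set.

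The balance between replicates varied among the 8 optimal regions. Over 2835 optimal regions with both summits, the median ratio of replicate 2 to replicate 3 signal was 1.33 (quartiles 1.08 and 1.65), and the lists were not scaled to each other. At the distal Mcad region the ratio was 2.01, at the region by Pef 1.69 and at the Mtpbeta promoter 1.68, all above the upper quartile. It was 0.679 at Etfb, 0.823 in the whd intron, 0.893 at the whd promoter and 1.02 at Etf-QO, all below the lower quartile. The region by ken, with 1.55, was the single one between the quartiles. At the distal Mcad region the matched summits lay 2 bp (replicate 2) and 113 bp (replicate 3) from the pooled one. That ratio therefore compares signals at different positions.

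No optimal or pooled summit window of the 10 genes, taken 100 bases to either side of the summit, held the ERR sequence TNAAGGTCA or its core AAGGTCA on either strand. That was 0 of 8 optimal and 0 of 37 pooled windows, and the weak replicate regions upstream of Mtpbeta named above were the exceptions in the replicate lists. Over all windows TNAAGGTCA occurred in 1.63% of the optimal and 1.02% of the pooled set, and AAGGTCA in 3.80% and 2.90%. A pair of AGGTCA sequences in the same direction with 1 base between them was found in 0 of the 37 pooled windows and 0 of 2892 optimal windows. Within 2 kb of a start TNAAGGTCA was present at 4 of the 10 genes, whd, Arc42, Mtpbeta and yip2, and at 13.1% of all protein-coding genes. For AAGGTCA, which lies within the longer sequence, the figures were 7 of 10 genes and 38.5%. CPT2 was among the 7, whereas Etf-QO, wal and Etfb were not. Among promoter factor motifs, the DREF motif TATCGATA was in the window of the region by Pef (5.53% of optimal windows). GAGAGAG was in that by ken (7.30%) and in a weaker pooled window 1985 bp upstream of Arc42, 74 bp from the start of Mrp5. GGTCACACT was in that at the Mtpalpha start (1.27% of pooled windows), and the E-box CACGTG in a weak pooled window at Etfb (3.15% of pooled windows). A match describes these letters and is not evidence of a bound site.

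Genes of the same pathway outside the 10 were taken from a wider list of 40. Of the other 30 genes, 14 had an optimal region under the same rule, beside 22.5% of all genes, and for 12 of these 14 the nearest protein-coding start was their own. In activation and the carnitine shuttle 5 of 7 had one: Fatp1, a fatty acid transport protein gene (signal 98.1), the acyl-CoA synthetase genes Acsl (87.0), pdgy (77.4) and bgm (77.1), and the carnitine carrier gene colt (69.7). The Acsl region lay in an intron, 1757 bp from the nearest start, and replicate 3 had no summit within 150 bp of it. The highest Acsl region of replicate 3, at another place, ranked 1536. The bgm region ranked 3718 in replicate 3 and the pdgy region 3804 in replicate 2, outside the 2892 highest there. The colt summit lay 55 bp inside the gene and ranked 3442 in replicate 2 and 2383 in replicate 3. Its pooled signal was close to 69.2, the lowest of the optimal set. In that set the shuttle thus had promoter regions at whd and colt and none at CPT2.

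Among the dehydrogenases 2 of 5 had one, CG4860 (92.3) and CG3902 (80.9), the latter 30 bp from the start of the ribosomal protein gene RpL26. In the hydratase to isomerase steps it was 3 of 10, namely scu, a hydroxyacyl-CoA dehydrogenase gene (94.2, nearest the start of RhoGAP16F), Had1, also a hydroxyacyl-CoA dehydrogenase gene (92.1), and the isomerase gene Dci (88.7). Of the peroxisomal genes 4 of 8 had one, among them CG4586 (278), the multifunctional enzyme gene Mfe2 (105) and CG17544 (89.1). The CG17544 region ranked 3252 in replicate 3. CG4586 ranked 154 in the pooled list, 140 in replicate 2 and 176 in replicate 3. It was the only gene of the 40 above the 128 at whd, which is the region by Pef. Several genes, Mfe2 and Fatp1 among them, were above the promoter region of whd with its pooled 96.6. The isomerase gene CG4598 stands beside yip2 and shares with it the replicate 3 region of rank 4699.

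**Figure D4:**
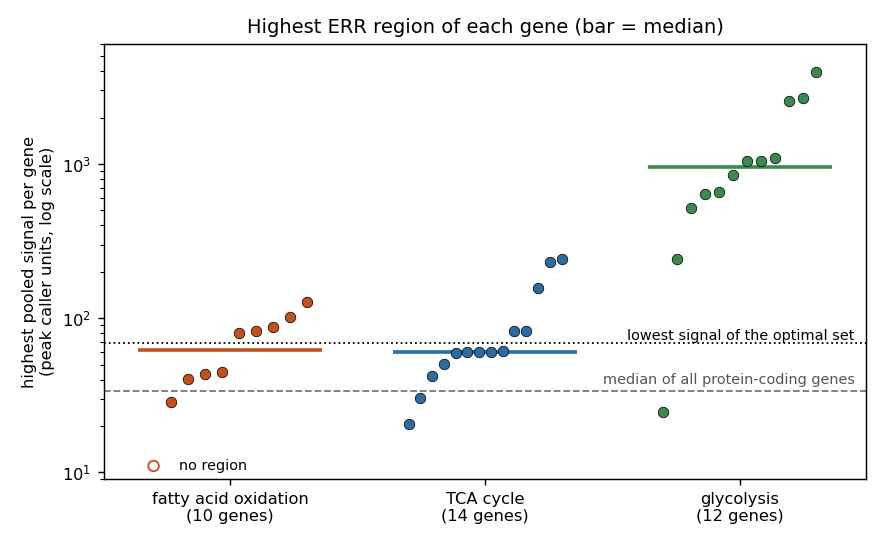
Highest pooled signal of each gene (y axis, peak caller units on a log scale) for the 10 fatty acid oxidation genes, 14 TCA cycle genes and 12 glycolysis genes (x axis), with bars at the medians. The fatty acid oxidation genes reach 128, the TCA cycle genes 242 and the glycolysis genes 3946, and the open symbol is CPT2.

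The 10 genes were set beside other energy pathways by their highest pooled signals. For the 10 genes these had a median of 62.6, with CPT2 counted as 0, against 33.9 over all protein-coding genes. The median was 60.3 over 14 TCA cycle genes, of which 5 had an optimal region, and 949 over 12 glycolysis genes, of which 11 had one. The highest signal among the 10 genes was 128 at whd, from the region by Pef. It was below 11 of the 12 glycolysis genes, Hex-C with 24.8 being the exception. It was also exceeded by 3 TCA cycle genes: Fum1 (242), Mdh2 (232) and mAcon1 (158). No test of these differences was made. The genes searched spanned a median of 4.21 kb for fatty acid oxidation, 5.40 kb for the TCA cycle and 5.65 kb for glycolysis. Pooled regions numbered 0.741 per kb searched at the 10 genes, 0.730 at the TCA cycle genes, 0.880 at the glycolysis genes and 0.313 over all genes.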

How the data were processed

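ERR ChIP-seq region lists on build dm6 were used as the authors deposited them: 1 relaxed list of 30000 regions for each of 2 replicates, 1 for both pooled, and the optimal set, which was identical to the 2892 highest pooled regions. Per the labels, chromatin was sonicated to 200 to 800 bp. The signal of a region is the peak caller's own value as deposited by the authors, and −log10 q is likewise the deposited value. Whether these signals are normalised to a control is not stated in the deposited notes. Names and versions of the aligner and the peak caller: not given in the sources used here. Signals are not scaled between lists, so ranks were used to compare replicates. Lists on dm3 were not used here.

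Gene models were Ensembl release 115 (BDGP6.54), and printed sequence is from the NCBI release 6 genome, with 1-based dm6 coordinates. Regions were tied to genes by summit position, and a replicate region was matched to a pooled one by the nearest summit within 150 bp. Each motif was looked for on both strands within 100 bases of a summit. Older symbols were matched through the RefSeq gene table, which placed all 40 listed pathway genes and 14 of 15 TCA cycle genes. Work was done in Python 3.11.15 with pandas 2.3.3, and the rule that ties summits to genes was tested on simulated summits. The code for motif counts and replicate matching was not tested in that way. No significance test was made. Members and gene lists were chosen with earlier results of these data known. Named genes are the 10 members, pathway genes with an optimal region (1 is not reported here by name) and the genes nearest the members' optimal regions, and others were named after their values were seen. Alternatives were other distances, set sizes, gene assignment and each replicate alone.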

Additional observations from a re-analysis of the deposited data

How the results depend on the processing

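Among 19 alternative counts of genes, 13 stayed within 1.5 times the reported count and 6 moved. The count of 5 of the 10 genes with an optimal region was 2 in the higher-signal 50% of the set (12.9% of all genes). These were whd and Mtpbeta, through the regions nearest the starts of Pef and ken. The count was 8 among the 10000 highest pooled regions (6966 of all 13945 genes), and 3 to 5 without each replicate. In replicate 2 the count of 3 became 1 with 1000 regions (9.47% of all genes) and 5 with 5000 (33.8%), and in replicate 3 the count of 5 became 0 with 1000 (9.10%; whd, at rank 1085, was nearest). Of the wider list of 40, 19 had an optimal region, and 15 to 21 without each replicate. No paired analysis was possible because there was 1 group. Unknown depth sets a limit on weak regions, and absence from a list of 30000 is not absence of binding.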
